A study of Mus musculus with 2 samples.

Results

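The genes described here encode the subunits of the oxidative phosphorylation system in both genomes of the mouse cell. They were taken by symbol from the count table: every gene whose name begins with mt-, Nduf, Sdh, Uqcr, Cox4, Cox5, Cox6, Cox7, Cox8 or Atp5. This gave 107 of 14714 genes, of which 13 lie in the mitochondrial DNA (mt- genes) and 94 in the nuclear genome. Of the nuclear members, 82 were counted as subunits by name, among them Ndufb1-ps, which the annotation used here lists as a non-coding RNA. Another 12 encode assembly factors of complexes I and II (Ndufaf and Sdhaf genes), which help build the complexes and are not part of them. The skeletal and cardiac muscle paralogs Cox6a2 and Cox8b, and Cox8c, have no column in the count table.

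Oxidative phosphorylation takes place in the inner mitochondrial membrane. Complex I oxidises NADH, complex II oxidises succinate, and both pass electrons through ubiquinone to complex III, cytochrome c and complex IV, which reduces oxygen. The proton gradient made on the way drives ATP synthase, complex V. Mitochondrial DNA encodes a few core subunits of each complex except complex II, and all other subunits are made in the cytosol and imported. Vascular smooth muscle and aortic endothelium also rely on glycolysis, and the balance between both routes differs with cell state.

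Single cells of enzymatically digested aortas were profiled in 2 libraries, 1 per genotype, from mice fed a western diet for 12 weeks. The first genotype was the Apoe knockout (labelled ApoE, below Apoe_KO), which is prone to atherosclerosis. The second was EC-iDKO on the same Apoe knockout background (labelled DKO, below the double knockout), in which EC-iDKO stands for an inducible double knockout in endothelial cells, from knowledge of the line of the epsins Epn1 and Epn2. Both libraries therefore share the Apoe deletion and the diet, and the animals' age and the number of mice per library are not given in the sources used here, nor is what drives the Cre. Counts are unique molecular identifiers (UMIs), that is captured 3' ends of polyadenylated transcripts, and CD31 microbeads are named in the protocol although the cell type label reads all cells.

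The Apoe_KO library held 2428 cells and 13304762 UMIs with a median of 3769.5 UMIs per cell, and the double knockout library held 5489 cells and 6853185 UMIs with a median of 769. The deposited table listed every Apoe_KO barcode in 2 copies with identical counts, and each was counted once. There were no replicates, so no p-value was made; levels are counts per 1000000 UMIs (CPM) of a population, and the 95% intervals cover counting error only. They do not cover differences between mice, dissections or library preparations, and the higher and lower levels below describe these 2 libraries. A gene was called higher or lower in the double knockout library when the libraries' CPM differed by a factor of 1.5 or more and the interval of the ratio lay wholly on one side of 1, among genes with at least 100 UMIs over both libraries. The main population was the deposited smooth muscle class (SMC) without cluster 15, with 1516 Apoe_KO and 4348 double knockout cells. The other was cluster 9 of the deposited endothelial class, with 96 and 287 cells. All 8 smooth muscle markers were seen in the SMC cells of both libraries, with a summed level of 47509 and 49745 CPM. Markers of other cell types were lower in level there and differed between the libraries: pericyte markers summed to 2395 and 1554 CPM, fibroblast markers to 859 and 473 CPM, chondrocyte-type markers to 279 and 85.9 CPM, macrophage markers to 80.8 and 13.9 CPM, and erythroid markers to 3.85 and 61.8 CPM. Their part in the smooth muscle results was not tested. In cluster 9 the 8 endothelial markers summed to 2068 CPM in Apoe_KO, where Kdr was at 0, and to 3898 CPM in the double knockout, while smooth muscle markers summed to 29163 and 27493 CPM in the same cells.

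The 3 mitochondrial genes with the shortest coding sequences, on which the comparison turns, are shown because neighbouring frames share bases, so that reads from one transcript can be assigned to either gene, and because their length bears on what follows. The sequences are those of the GENCODE vM21 transcripts on GRCm38, 5' to 3', all on the + strand of mitochondrial DNA. The mt-Atp8 gene spans chrM:7766-7969 and overlaps mt-Atp6 by 43 bases, and mt-Nd4l spans chrM:9877-10173 and overlaps mt-Nd4 by 7 bases. Capitals mark the shared bases. The gene mt-Nd3 spans chrM:9459-9806 and was not among the overlaps found; its last 300 bases, the end nearest to a 3' tag, are printed.
mt-Atp8: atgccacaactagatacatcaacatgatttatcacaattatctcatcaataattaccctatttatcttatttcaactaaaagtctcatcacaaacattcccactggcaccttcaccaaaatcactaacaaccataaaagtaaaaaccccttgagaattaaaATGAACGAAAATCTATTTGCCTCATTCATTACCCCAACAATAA
mt-Nd4l: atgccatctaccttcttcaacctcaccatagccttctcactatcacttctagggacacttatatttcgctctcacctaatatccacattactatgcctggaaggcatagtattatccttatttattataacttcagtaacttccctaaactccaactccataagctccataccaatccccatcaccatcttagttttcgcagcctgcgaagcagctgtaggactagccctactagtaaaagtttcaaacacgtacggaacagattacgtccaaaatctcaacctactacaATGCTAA
mt-Nd3: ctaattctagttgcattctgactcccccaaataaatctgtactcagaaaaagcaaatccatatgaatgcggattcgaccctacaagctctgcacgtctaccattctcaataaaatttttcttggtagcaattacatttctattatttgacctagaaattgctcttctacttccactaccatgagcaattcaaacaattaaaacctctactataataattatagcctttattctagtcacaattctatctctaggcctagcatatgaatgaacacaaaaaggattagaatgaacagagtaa

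In smooth muscle cells the mitochondrially encoded transcripts together were slightly lower in the double knockout library. Their sum was 50959 CPM in Apoe_KO and 46305 CPM in the double knockout, a log2 ratio of -0.14 (interval -0.15 to -0.13). The nuclear members moved by a like amount, from 17329 to 15562 CPM (log2 ratio -0.16, interval -0.17 to -0.14). The sizes changed with the handling of depth. With cells below 1000 UMIs left out and the others thinned to 1000 UMIs, the log2 ratios were -0.42 for the mitochondrial and -0.05 for the nuclear sum. This kept 1421 of the 1516 Apoe_KO and 1500 of the 4348 double knockout cells. Cells below 1000 UMIs were left out wherever thinning is named below, so its effect cannot be told apart from that of leaving out shallow cells. The mean of per-cell levels, in which shallow cells weigh as much as deep ones, gave -0.41 and 0.01, so the direction of the nuclear sum turned there.

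Single mitochondrial genes did not share one ratio. The cytochrome c oxidase subunits mt-Co1, mt-Co2 and mt-Co3 form the catalytic core of complex IV. Their SMC levels were 7420, 5532 and 11214 CPM in Apoe_KO and 6535, 6075 and 10741 CPM in the double knockout, with a log2 ratio of 0.13 for mt-Co2 that turned to -0.11 after thinning to 1000 UMIs per cell. Cytochrome b, mt-Cytb, the mitochondrial subunit of complex III, was at 4540 and 4253 CPM. The membrane subunit of the ATP synthase proton channel, mt-Atp6, was at 10262 and 8981 CPM. Of complex I, mt-Nd1 was at 3123 and 2509 CPM, mt-Nd2 at 1989 and 1854 CPM, mt-Nd4 at 4577 and 3893 CPM, and mt-Nd5 at 844 and 749 CPM. These 9 genes stayed under the 1.5-fold limit, which mt-Nd1 passed after thinning (log2 ratio -0.63).

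The remaining 4 genes passed it. The complex I subunit mt-Nd3 had 627 CPM in Apoe_KO and 268 CPM in the double knockout, 2.34-fold lower (interval 2.21 to 2.48). Its neighbour mt-Nd4l fell from 726 to 352 CPM, 2.06-fold lower (1.96 to 2.17). The ATP synthase subunit mt-Atp8 was at 84.8 and 51.6 CPM, 1.64-fold lower (1.43 to 1.89), and at a log2 ratio of -0.55, short of the limit, without shallow cells and cells of high mitochondrial share. These are the 3 genes printed above, and for mt-Nd4l and mt-Atp8 the split of reads with the overlapping gene is uncertain. The fourth was mt-Nd6, the complex I subunit encoded on the opposite strand (chrM:13552-14070), at 20.4 and 43.8 CPM, 2.14-fold higher (1.76 to 2.62) on 175 and 240 UMIs. Thinning ended this call, taking the log2 ratio of mt-Nd6 from 1.10 to 0.18. Its span overlaps that of mt-Nd5 (chrM:11742-13565), and whether counting used strand is not given in the sources used here. Of the 18 clusters with at least 50 cells in both libraries, 11 consist mostly of these same smooth muscle cells. Over the 18, mt-Nd3 was lower in the double knockout in 18, mt-Atp8 in 17 and mt-Nd4l in 15, and mt-Nd6 was higher in 17. Some uncalled genes had like counts, with mt-Co1 lower in 16 and mt-Nd1 and mt-Nd4 each in 15. In contrast, mt-Co2 was higher in 13 and mt-Nd2 in 11. The 4 called genes were picked by their smooth muscle ratio, and the like share over all genes is not given here. Over all genes of the SMC population with at least 100 UMIs, 9.37% were called higher and 6.56% lower, against 1 and 3 of the 13 mitochondrial members.

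**Figure D1:**
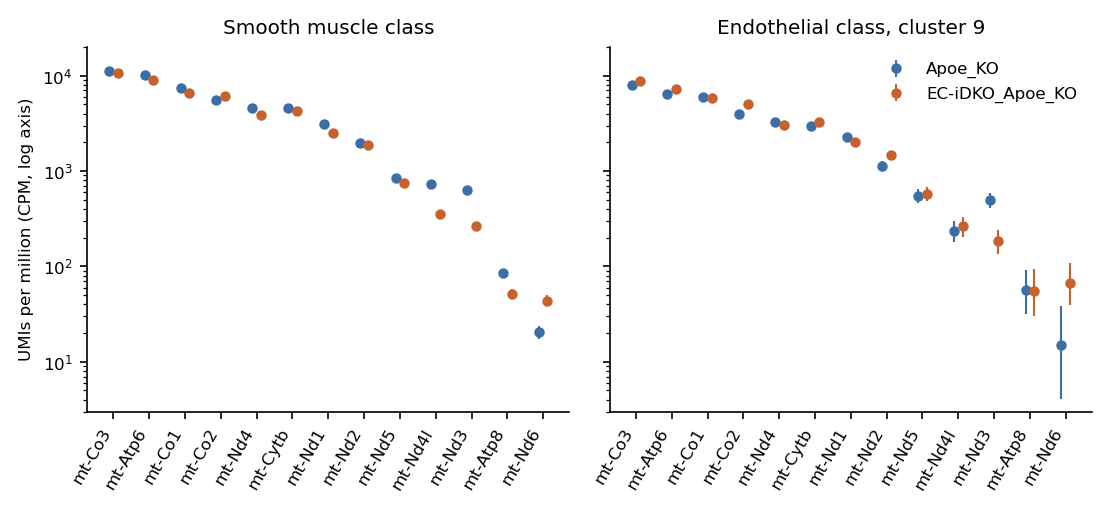
Level of the 13 mitochondrial DNA genes in CPM (log axis) in the smooth muscle class and in cluster 9 of the endothelial class. Points are the 2 libraries and bars 95% Poisson intervals; mt-Nd3 lies lower in the double knockout in both panels, from 627 to 268 CPM in smooth muscle, while mt-Nd4l does so in smooth muscle and not in cluster 9.

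Cluster 9 cells gave a different picture for part of the mitochondrial genes. The mitochondrial sum was 35324 CPM in Apoe_KO and 38058 CPM in the double knockout (log2 ratio 0.11, interval 0.07 to 0.15), and the nuclear sum was 15548 and 14638 CPM (log2 ratio -0.09, interval -0.15 to -0.02). The mitochondrial direction turned to -0.11 when cells below 1000 UMIs or from 10% mitochondrial UMIs upward were left out, after which the double knockout kept 58 cells. The same ratio was -0.25 after thinning, for which the double knockout kept 59 cells, and -0.02 as a mean of per-cell levels. Of 11 mitochondrial genes with at least 100 UMIs, 0 were called higher and 1 lower (beside 12.8% and 14.6% of the 776 genes tested). This was mt-Nd3, at 494 and 183 CPM, 2.70-fold lower (1.92 to 3.87). The level of mt-Nd4l was 236 CPM in Apoe_KO and 262 CPM in the double knockout (log2 ratio 0.15, interval -0.37 to 0.67), which did not separate the libraries. Markers of other cell types moved with the genotype in these cells. For macrophages the values were 7 of 8 seen and 1948 CPM in Apoe_KO against 2 of 8 and 39.7 CPM in the double knockout, where Adgre1, C1qa, C1qb, Csf1r, Lyz2 and Mrc1 were at 0. Fibroblast markers summed to 3397 and 437 CPM, chondrocyte-type markers to 483 and 43.7 CPM, cycling markers to 247 and 3.97 CPM, and erythroid markers to 0 and 683 CPM. The part of such cells in the cluster 9 values was not tested.

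Among nuclear members in smooth muscle cells, 89 of 94 reached 100 UMIs. Of these, 6 were called higher and 18 lower in the double knockout library (6.74% and 20.2%, beside 9.37% and 6.56% of all genes tested), and 65 were neither. Their median log2 ratio was -0.06, against 0.03 for all genes. The members under the floor were Cox6b2, Cox7a1, Ndufa4l2, Sdhaf1 and Ndufaf6.

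Complex I contributed 37 members, with 2 called higher and 7 lower and a median log2 ratio of 0.04. The member with most UMIs was Ndufa13, an accessory subunit, at 369 CPM in Apoe_KO and 341 CPM in the double knockout. The lowest ratios were those of Ndufb1-ps and of small accessory subunits. Ndufb1-ps, which the annotation used here lists as a non-coding RNA with no coding length, was at 104 and 40.3 CPM, 2.58-fold lower (interval 2.22 to 3.0). Ndufa3 was at 80.7 and 36.1 CPM, 2.23-fold lower (1.91 to 2.63), and Ndufa1, which sits in the membrane arm, at 108 and 54.0 CPM, 2.00-fold lower (1.76 to 2.29). Ndufa2, Ndufa5, Ndufb2 and Ndufc1 were lower by 1.65 to 1.74-fold. In the other direction, Ndufb10, an accessory subunit of the membrane arm, had 140 CPM in Apoe_KO and 281 CPM in the double knockout, 2.01-fold higher (1.86 to 2.17). Ndufab1, the mitochondrial acyl carrier protein, was at 78.2 and 153 CPM, 1.95-fold higher (1.76 to 2.17). The core subunits Ndufs1, Ndufs3, Ndufs7, Ndufs8, Ndufv1 and Ndufv2, which take part in the electron transfer, had ratios from 1.03 to 1.45, none of them called. Of these, Ndufs8 was at 72.4 and 105 CPM and Ndufs1 at 48.5 and 50 CPM.

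The 10 assembly factors that reached 100 UMIs held 1 higher and 1 lower call. Ndufaf1 was at 8.17 and 13.3 CPM, 1.63-fold higher (1.16 to 2.29) on 70 and 73 UMIs, a call that ended after thinning (log2 ratio 0.70 before and 0.015 after). Ndufaf2 was at 34.0 and 18.8 CPM, 1.81-fold lower (1.44 to 2.29). Ndufaf4 was at 35.4 and 46.3 CPM, with a ratio of 1.31, and its log2 ratio went from 0.39 to 0.96 after thinning.

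Complex II, which also serves the tricarboxylic acid cycle, gave no call. Its flavoprotein Sdha was at 107 and 108 CPM and its iron-sulfur subunit Sdhb at 69.7 and 83.5 CPM. The membrane anchors Sdhc and Sdhd were at 111 and 105 CPM and at 19.9 and 26.3 CPM. The complex summed to 308 and 322 CPM, a log2 ratio of 0.06 (interval -0.03 to 0.15).

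The nuclear subunits of complex III had the lowest summed ratio of all complexes, at 1722 and 1305 CPM (log2 -0.40, interval -0.44 to -0.36), with 3 of its 8 members called lower and 1 higher. The small subunits Uqcr10, Uqcr11 and Uqcrb were 1.69-fold, 1.58-fold and 1.54-fold lower. The core proteins Uqcrc1 and Uqcrc2 stayed near 1, at 123 and 122 CPM and at 105 and 97.2 CPM. Uqcrfs1, the Rieske iron-sulfur protein, was at 28.5 and 42.9 CPM, 1.50-fold higher (1.25 to 1.81). This lay at the limit, and the log2 ratio of 0.59 fell short of it at 0.58 without mitochondrial UMIs in the total, 0.56 with the median of all genes set to 0 and 0.39 after thinning. Uqcrh, the hinge protein and the member with most UMIs, was at 512 and 429 CPM.

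Complex IV held both the member with the highest ratio and several of the low ones. Cox5a, a matrix-side subunit, rose from 87.0 CPM in Apoe_KO to 235 CPM in the double knockout, 2.70-fold higher (2.46 to 2.96). Cox6c, a small membrane subunit, was at 598 and 296 CPM, 2.02-fold lower (1.91 to 2.14), Cox7c at 406 and 224 CPM, 1.81-fold lower (1.70 to 1.93), and Cox7a2 at 426 and 262 CPM, 1.63-fold lower (1.53 to 1.73). Cox4i1, the regulatory subunit with most UMIs of all nuclear members, differed little, at 917 and 961 CPM. Cox8a was at 643 and 507 CPM and Ndufa4, named for complex I but assigned to complex IV, at 528 and 412 CPM, both short of the limit.

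Of the 17 ATP synthase members, 1 was called higher and 4 lower. The lowest nuclear ratio of all belonged to Atp5k, subunit e of the membrane part, at 166 CPM in Apoe_KO and 54.4 CPM in the double knockout, 3.05-fold lower (2.69 to 3.47). Other small proteins of the membrane part lay beside it. Atp5md was 2.33-fold lower (131 and 56.4 CPM), and Atp5mpl 2.15-fold lower (130 and 60.4 CPM). Atp5e, the epsilon subunit of the central stalk, was at 344 and 195 CPM, 1.76-fold lower (1.64 to 1.89). Atp5d, the delta subunit of the same stalk, lay on the other side, at 242 and 361 CPM, 1.49-fold higher and just under the limit. Atp5o, of the peripheral stalk, was at 112 and 191 CPM, 1.70-fold higher (1.56 to 1.86). The catalytic subunits Atp5b and Atp5a1 were at 461 and 458 CPM and at 352 and 337 CPM, with intervals of the ratio that held 1. Complexes I, III, IV and V each held members called in both directions.

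The direction of most of the outermost members was the same in all or nearly all clusters. These members were chosen by their smooth muscle ratio, and 11 of the 18 clusters consist mostly of the same smooth muscle cells. Agreement in those clusters is therefore partly set by the choice, and the like share over all genes is not given here. Over the same 18 clusters, Atp5k, Ndufb1-ps, Atp5md, Ndufa3, Atp5mpl, Cox6c, Ndufa1, Cox7c and Atp5e were each lower in the double knockout in 18 of 18. Cox5a, Ndufb10, Ndufab1, Atp5o and Ndufs8 were each higher in 18 of 18. Ndufaf2 was lower in 17, Atp5d higher in 17, and Uqcrfs1 and Ndufaf4 higher in 16, while Ndufaf1 and Sdhd were higher in 12 and lower in 6. Atp5k ranged from 90.7 CPM in cluster 2 to 209 CPM in cluster 12 in Apoe_KO, and from 20.5 to 77.2 CPM in the double knockout, where the lowest value rests on 1 UMI. The clusters share their library, and a difference of the library preparation cannot be told apart from one of genotype.

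Length moved with these ratios. Every nuclear member called lower in smooth muscle that had an annotated coding sequence (16 of 18) had one of 504 nt or less, with a median of 228 nt, and the 6 called higher had 438 to 990 nt. Of 20 members with under 300 nt, 12 were called lower and 0 higher, with a median log2 ratio of -0.71. In members from 600 to under 900 nt the median was 0.33, and in those of 900 nt and over it was 0.03. Across 87 nuclear members the ratio had a Spearman correlation of 0.68 with coding length and 0.50 with transcript length, given as a description across genes that share both libraries and their depth. Over the 8608 other genes with a length the same correlations were -0.12 and -0.17, of the opposite sign. Cox7b, with 240 nt, was an exception, at 160 and 186 CPM. The 3 mitochondrial genes called lower had 201 to 345 nt, the shortest of that genome.

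Genes outside the set were compared in the same length ranges. Among 187 other genes with coding sequences under 300 nt, 21.9% were called lower, against 6.07% of 6211 genes with 900 nt and over, but their median log2 ratio was -0.09. By transcript length, other genes under 450 nt had a median log2 ratio of -0.78 (14 genes) and nuclear members -0.82 (5 genes), and from 450 to under 600 nt the medians were -0.36 (55 genes) and -0.43 (12 genes). From 600 to under 800 nt they parted, at 0.13 for 159 other genes and -0.26 for 22 members. Set against the median of other genes of like transcript length, 3 of 87 members were called higher and 12 lower. The share of all genes called after the same adjustment is not given here, so these counts have no background beside them. That adjustment was chosen after the data were seen, and the part of length in the ratios was not tested further.

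**Figure D2:**
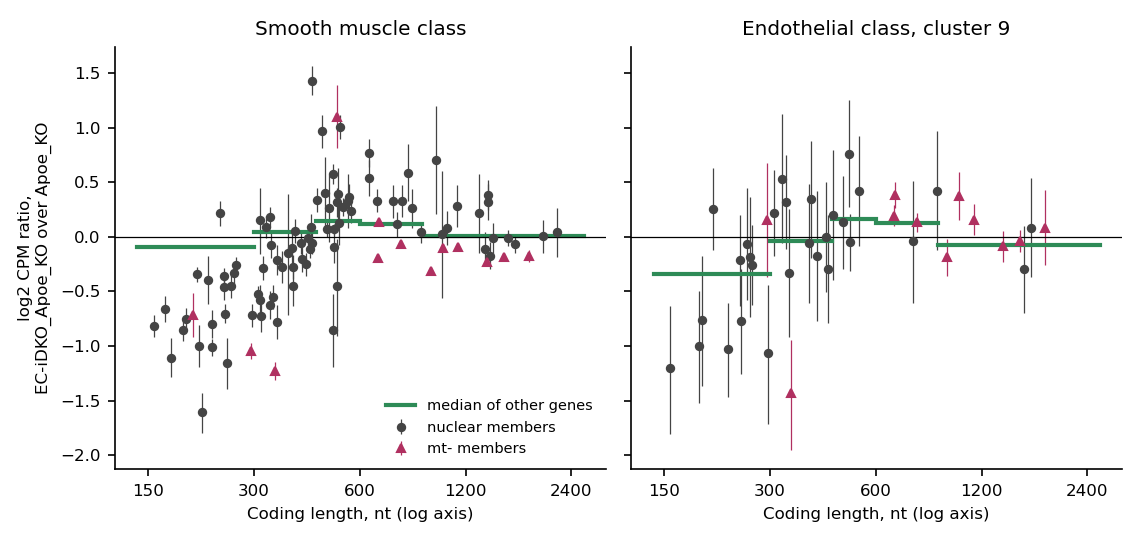
Log2 CPM ratio of each member with at least 100 UMIs against its coding length in nt (log axis), for the smooth muscle class and cluster 9. Points carry 95% counting intervals, triangles are mitochondrial genes and green bars the median of all other genes in 5 length ranges. Nuclear members under 300 nt in smooth muscle lie mostly below 0, with a median of -0.71. Nuclear members from 600 to under 900 nt have a median of 0.33.

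The promoters of the outermost nuclear members are shown for comparison, since nuclear respiratory factor 1 (NRF1) and ETS factors of the GABP type are known regulators of these genes. The windows are the 250 bases before the RefSeq start on GRCm38.p6, 5' to 3' on the gene's strand: chr5:108434400-108434649 on the - strand for Atp5k and chr9:57520982-57521231 on the + strand for Cox5a. Capitals mark a match to the NRF1 letters searched, GCGCA followed by any base and GCGC.
Atp5k: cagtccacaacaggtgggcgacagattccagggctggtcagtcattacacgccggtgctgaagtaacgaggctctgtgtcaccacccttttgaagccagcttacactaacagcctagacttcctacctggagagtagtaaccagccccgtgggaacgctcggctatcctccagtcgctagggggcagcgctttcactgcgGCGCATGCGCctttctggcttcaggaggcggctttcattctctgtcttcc
Cox5a: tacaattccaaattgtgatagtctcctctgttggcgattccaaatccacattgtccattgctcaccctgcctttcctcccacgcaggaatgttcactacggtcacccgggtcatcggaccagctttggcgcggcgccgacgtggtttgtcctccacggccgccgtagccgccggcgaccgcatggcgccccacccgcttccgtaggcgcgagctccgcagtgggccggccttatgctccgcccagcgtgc

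The Atp5k window holds 1 match and the Cox5a window none. On both strands, 13 of 77 nuclear members with a RefSeq window held the NRF1 letters (16.9%), beside 3.86% of all 27025 promoters. The ETS letters CCGGAAG were in 15 members (19.5%) and 7.05% of all promoters. A window can hold both motifs, which were counted apart. Of the members called lower in smooth muscle, 2 of 13 held each motif, and of the 6 called higher 0 held the first and 1 the second. A match is a string of letters and not a binding site.

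In cluster 9, 29 nuclear members reached 100 UMIs, of which 1 was called higher and 6 lower (3.45% and 20.7%, beside 12.8% and 14.6% of 776 genes). Ndufaf6 and Ndufa4l2 had 0 UMIs in both libraries there. The lower ones had also been called lower in smooth muscle, which comes from the same 2 libraries. The like overlap over all genes is not given here, so this is not a trait of these members alone. Atp5e was at 330 CPM in Apoe_KO and 143 CPM in the double knockout, 2.30-fold lower (1.55 to 3.5). Ndufa2 was 2.09-fold lower (266 and 127 CPM), Cox6c 2.04-fold (551 and 270 CPM) and Cox7c 2.00-fold (389 and 195 CPM). Cox7a2 and Uqcr10 were 1.71-fold and 1.69-fold lower. Atp5d was the one called higher, at 221 and 374 CPM, 1.69-fold (1.21 to 2.38), a call that ended after thinning (log2 ratio 0.76 before and 0.35 after). Ndufb9, Atp5c1 and Atp5j came next, with ratios of 1.34, 1.34 and 1.45 whose intervals held 1; after thinning the log2 ratio of Atp5c1 went from 0.42 to 1.22 and that of Cox6c from -1.03 to -1.62.

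The mitochondrial sum also varied between clusters. Over the 18 clusters with at least 50 cells in both libraries, it ran in Apoe_KO from 33028 CPM in cluster 13 to 74495 CPM in cluster 4, a 2.26-fold range. In the double knockout it ran over the same clusters from 33452 CPM in cluster 14 to 86744 CPM in cluster 15. It was lower in the double knockout in 12 of the 18 clusters, by most in cluster 4 (log2 -0.81) and cluster 14 (-0.77), followed by cluster 2 (-0.54) and cluster 0 (-0.52). It was higher by most in cluster 15 (0.51) and then in cluster 13 (0.31). The share of cells with at least 15% mitochondrial UMIs was 6.34% in Apoe_KO and 1.44% in the double knockout.

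Among the 18 clusters, the nuclear sum had its lowest level in cluster 2 in both libraries, at 11396 and 12645 CPM. Of these 18, this cluster also held the highest level of Malat1, a nuclear-retained RNA, at 91638 and 80657 CPM, and of mt-Nd6, at 103 CPM (41 UMIs) and 128 CPM (75 UMIs). Cluster 1 had the highest nuclear sum in Apoe_KO, at 21314 CPM, and cluster 15 in the double knockout, at 25428 CPM. Over the 18 clusters the Pearson correlation of Malat1 with the nuclear sum was -0.71 in Apoe_KO and -0.49 in the double knockout, as a description of clusters that share a library and a common total. Cluster 18, with 35 and 27 cells and so under the minimum of 50, had 96933 and 110480 CPM of mitochondrial and 7377 and 4796 CPM of nuclear transcripts. Its Malat1 level was 123577 and 149416 CPM. Cluster 19, with 9 and 67 cells, also lay outside the 18 clusters. It had 36294 and 23978 CPM of mitochondrial and 13152 and 9589 CPM of nuclear transcripts.

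**Figure D3:**
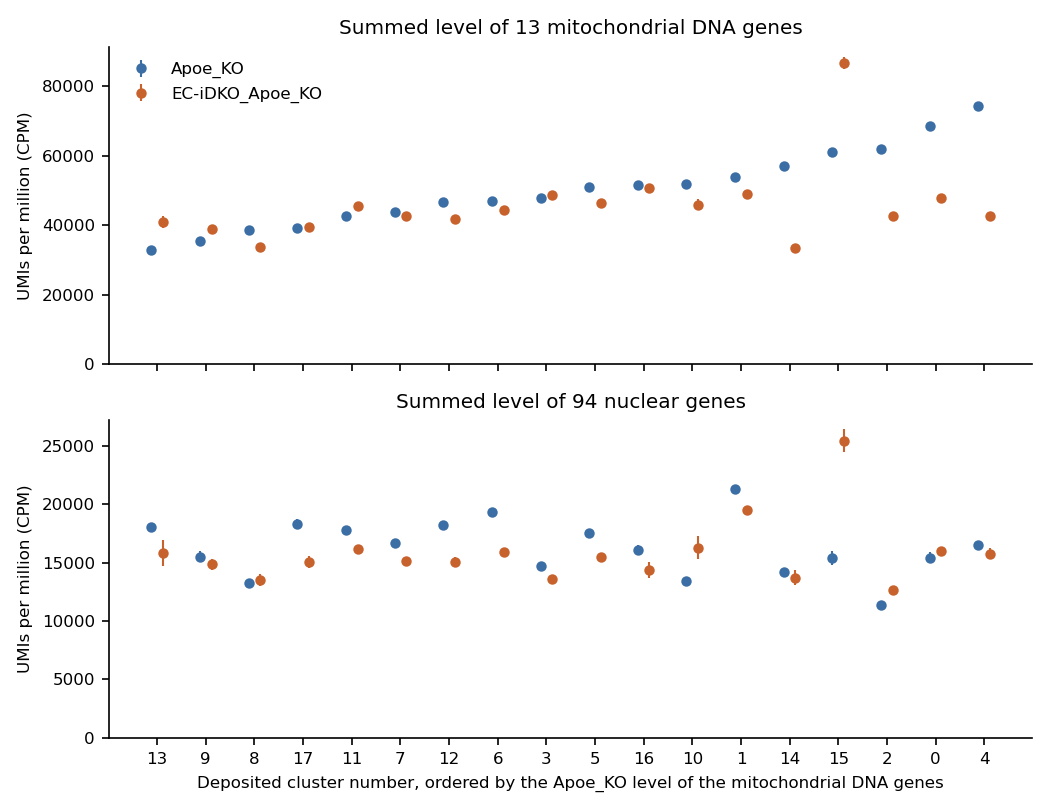
Summed level of the 13 mitochondrial and 94 nuclear genes, in CPM, in the 18 clusters with at least 50 cells in both libraries. Points are libraries and bars 95% Poisson intervals. Cluster 15 of the double knockout stands highest in both panels, at 86744 and 25428 CPM. In the mitochondrial panel, clusters 4, 14, 2 and 0 show the widest gaps with a lower double knockout.

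Of the 18 clusters, cluster 15 alone had both sums higher in the double knockout with intervals above 0. The nuclear sum was 15390 CPM in Apoe_KO and 25428 CPM in the double knockout (log2 0.72, interval 0.65 to 0.80), with 80 cells in each. Of 14 nuclear members with at least 100 UMIs, 10 were called higher and 1 lower (beside 17.8% and 42.1% of 409 genes). Only these 14 of 94 passed the floor, which is set on the UMIs of both libraries together. A member high in the double knockout passes it more easily, so the count called higher is partly set by the floor. Ndufb9 was at 239 and 865 CPM, 3.62-fold higher (2.50 to 5.31), Atp5d at 228 and 602 CPM, 2.64-fold, Atp5a1 at 272 and 612 CPM, 2.25-fold, and Cox8a at 576 and 1261 CPM, 2.19-fold. Cox6c remained 1.60-fold lower. Of the mitochondrial genes, mt-Co2, mt-Cytb and mt-Co1 were higher by 1.76, 1.75 and 1.62-fold, and mt-Nd3 and mt-Nd4l were lower by 2.18 and 1.77-fold. Complex II summed to 277 and 762 CPM, on 51 and 81 UMIs. The cells of this cluster differed between the libraries in their markers: the 6 adipocyte markers summed to 353 CPM in Apoe_KO, all of it Fabp4, with Adipoq, Cfd, Car3, Plin1 and Cidec at 0, and to 57911 CPM in the double knockout, where all 6 were seen. Macrophage markers summed to 2582 and 65.9 CPM and smooth muscle markers to 33551 and 21910 CPM. The part of these cells in the cluster 15 ratios was not tested.

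Among paralogs, Cox4i2 differed most between clusters. It is the alternative form of Cox4i1, known from lung and from pericytes and induced by low oxygen. In the smooth muscle class it made up 1.71% of Cox4i UMIs in Apoe_KO (interval 1.44 to 2.02) and 1.20% in the double knockout (0.93 to 1.53). In Apoe_KO the share reached 17.3% in cluster 10 (81 of 468 UMIs, 14 to 21), 13.4% in cluster 8 (11.4 to 15.6) and 7.59% in cluster 14 (5.10 to 10.8), and it was 0.75% in cluster 13. In the double knockout the same clusters had 4.05% in cluster 10 (3 of 74 UMIs, 0.84 to 11.4), 5.50% in cluster 8 (2.78 to 9.63) and 4.55% in cluster 14. The intervals of the 2 libraries did not overlap in clusters 8 and 10, nor in cluster 6 at lower shares (1.56% and 0.157%, the latter 1 UMI). The cells that carry these cluster numbers differed too: in cluster 10 chondrocyte-type markers summed to 25619 CPM in Apoe_KO and 86.6 CPM in the double knockout, and smooth muscle markers to 22007 and 40067 CPM. Their part in the shares was not tested. In level, Cox4i2 reached 134 CPM in cluster 10 against a median of 18.4 CPM over clusters in Apoe_KO, 7.33 times the median, the largest such ratio of the nuclear members with at least 100 UMIs in that library.

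**Figure D4:**
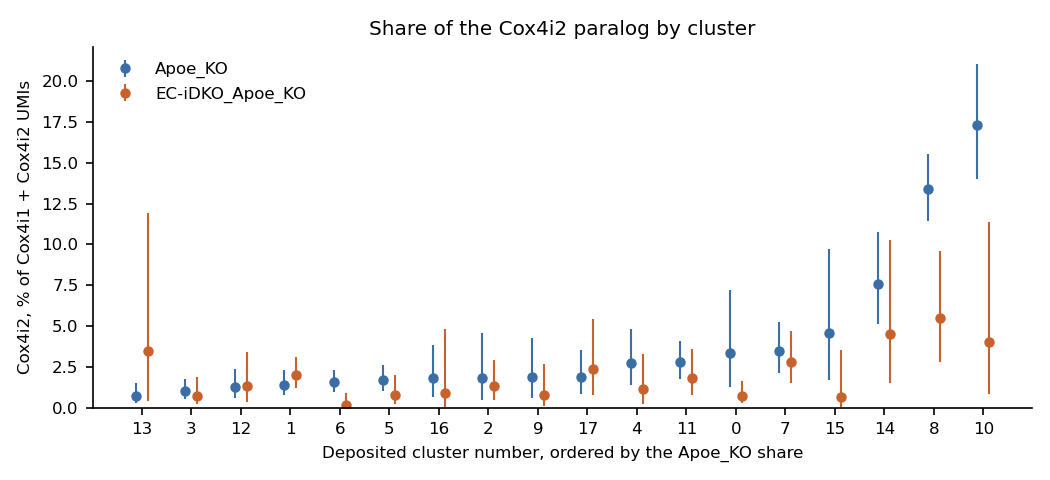
Share of Cox4i2 in the UMIs of Cox4i1 and Cox4i2 together, in percent, by cluster and library, with 95% Clopper-Pearson intervals. Clusters 10, 8 and 14 stand apart in Apoe_KO at 17.3%, 13.4% and 7.59%, while the double knockout points lie at 4.05%, 5.50% and 4.55%.

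The other members named for their spread over Apoe_KO clusters rested on fewer UMIs or smaller ranges. Sdhaf3, Ndufaf1 and Sdhaf2 had top clusters of 12, 4 and 9 UMIs. Cox5a, Atp5mpl and Cox6b1 were highest in cluster 13, at 156, 225 and 483 CPM, or 1.88, 1.79 and 1.78 times their medians. In this cluster macrophage markers summed to 17945 CPM in Apoe_KO. Cox7b was highest in cluster 15, at 304 CPM.

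Ndufa4l2, the paralog of Ndufa4 that is known as a target of hypoxia-inducible factor, was near absent, with 28 UMIs in Apoe_KO and 1 in the double knockout over all cells. Of these, 24 were in cluster 8 of Apoe_KO, at 15.6 CPM. Cox7a1, the muscle form, had 10 and 5 UMIs, and Cox6b2, the testis form, had 84 and 17. The family of Cox7a proteins shifted in its makeup. Cox7a2l, which joins complexes III and IV in supercomplexes, made up 38.8% of the family's UMIs in Apoe_KO smooth muscle (interval 37.6 to 40.1) and 54.0% in the double knockout (52.2 to 55.8). Its own level was 271 and 308 CPM while Cox7a2 was the lower one, and in cluster 9 the shares were 45.0% and 63.1%. The ATP synthase c-ring genes Atp5g1, Atp5g2 and Atp5g3, which encode the same mature protein, kept nearly the same proportions, with Atp5g2 at 35.3% and 36.8% in smooth muscle.

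Other genes of the mitochondrion in smooth muscle cells showed calls of both directions, to be read beside the 9.37% higher and 6.56% lower of all genes tested. Of the assembly factors of complexes II to V, 4 of 29 were higher and 3 lower. The copper chaperone Cox17 was at 87.3 and 32.5 CPM, 2.69-fold lower (2.28 to 3.19), Fmc1 1.86-fold and Pet100 1.75-fold lower, and Coa4 1.83-fold higher. The small subunit of the mitochondrial ribosome had 5 of 28 higher and 0 lower, led by Mrps34 (2.79-fold) and Mrps24 (2.77-fold), and the large subunit 3 of 49 higher, such as Mrpl22 (1.98-fold), and 2 lower, such as Mrpl52 (1.69-fold). Of the import machinery 3 of 25 were higher, such as Tomm20 (2.00-fold), and 2 lower, such as Tomm7 (2.01-fold). The tricarboxylic acid cycle had 1 of 17 higher, Idh3b at 1.59-fold, and 0 lower. Electron carriers and nucleotide exchange had 2 of 16 higher, with Etfb at 1.78-fold, and Coq2 1.54-fold lower. Medians of these lists lay between -0.04 and 0.24 in log2, beside 0.03 for all genes.

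Regulators of mitochondrial biogenesis had 1 of 15 higher, the helicase Twnk at 2.38-fold, and 1 lower, the RNA-binding protein Slirp at 2.25-fold. Beside the same 9.37% and 6.56%, glycolysis had 3 of 18 higher and 0 lower: Gapdh was at 557 and 1101 CPM (1.98-fold), Pfkfb3 at 1.71-fold and Pfkl at 1.66-fold. Hypoxia-induced genes had 2 of 10 higher, Ddit4 at 3.09-fold and Egln3 at 1.75-fold, with a list median of -0.23. Mitochondrial stress genes had 2 of 16 higher, with Gdf15 at 3.27-fold, and 2 lower, Hspe1 at 1.69-fold and Pink1 at 1.53-fold. Nuclear-retained RNA gave 1 lower call of 4, Meg3 at 1.72-fold.

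Cytosolic ribosomal proteins, which have no part in the mitochondrion, were called in both directions as well. Of 28, 3 were higher and 5 lower, beside 9.37% and 6.56% of all genes. Rps29, Rps27, Rpl37, Rplp2 and Rpl41 were lower by 2.51, 2.26, 2.22, 2.09 and 1.84-fold, and Rps2, Rpl13 and Rplp0 were higher by 3.12, 1.95 and 1.91-fold. Reads of ribosomal proteins can be shared with pseudogenes, so these levels are uncertain. Over the called list genes outside the set, the median coding length was 321 nt for the 16 lower ones with a length and 717 nt for the 29 higher ones. These lists were chosen by hand. Over all called genes outside the set with a length, the order was reversed. The median was 1359 nt for 527 lower genes and 1075 nt for 798 higher ones.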

How the data were processed

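The deposited table held UMI counts per gene and cell, made by the authors with Cell Ranger and Seurat on mm10, per the submitters' processing notes; their versions are not given in the sources used here. A mitochondrial fraction per cell, computed by the authors, was deposited beside cluster names and numbers, and was used as a check of the mitochondrial sum. Cells below about 500 UMIs were already absent. The 10345 cell entries held 2428 Apoe_KO barcodes in 2 copies with identical counts, so 7917 cells were kept; 5 barcodes occurred in both libraries.

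Counts were summed per library and cluster or class and scaled to CPM. The 95% intervals are exact: Poisson for a level, binomial given the summed UMIs for a ratio, and Clopper-Pearson for a share; they cover counting error only, and a count of 0 was read against a floor of 3 UMIs. With 1 library per genotype no significance test was possible. The rule for calls, tested on simulated data, needed 1.5-fold, an interval without 1 and 100 UMIs. The simulated libraries were Poisson draws from a shared profile with set folds. They held counting error only, so they cannot show how often differences between mice, cells or library preparations give a call. Named genes were all mitochondrial genes, paralogs, the 10 highest and 10 lowest nuclear members in smooth muscle, the 4 highest and 4 lowest in cluster 9, the 8 with the largest top cluster over median cluster, the most abundant member per complex and up to 4 members of each list; other names were chosen after their values were seen. Members and lists were chosen with earlier results of these data known. Lengths are those of GENCODE vM21 APPRIS principal transcripts, found for 105 members, and coding length leaves out the stop codon. Python 3.11.15, NumPy 2.4.6, SciPy 1.17.1, pandas 2.3.3 and matplotlib 3.10.9 were used. Doublets were not called again. The single values of 1 member are not reported here; it is included in the sums and counts.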

Additional observations from a re-analysis of the deposited data

Results flagged for a closer look

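The mitochondrial sum differed in direction between cell groups as reported. Its log2 ratio of the double knockout over Apoe_KO was -0.14 in smooth muscle and 0.11 in cluster 9, 0.31 in cluster 13 and 0.51 in cluster 15. Between smooth muscle and cluster 9 the contrast did not hold in 3 settings, where both were negative: -0.059 and -0.11 without shallow cells and cells of high mitochondrial share, -0.42 and -0.25 after thinning, and -0.41 and -0.019 as per-cell means. The nuclear sum was at -0.16 in smooth muscle and 0.72 in cluster 15. With 1 library per genotype, each of these differences was not tested. In clusters 13 and 15 the cells differed between the libraries in their markers. Macrophage markers summed to 17945 CPM in Apoe_KO and 4609 CPM in the double knockout in cluster 13, smooth muscle markers to 12014 and 34434 CPM in the same cluster, and adipocyte markers to 353 and 57911 CPM in cluster 15. The part of these cells in the differences was not tested.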

How the results depend on the processing

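No paired analysis was possible because each genotype had 1 library. In smooth muscle the log2 ratios of the mitochondrial and the nuclear sum were -0.059 and -0.20 with shallow cells and cells of high mitochondrial share left out, -0.42 and -0.045 after thinning to 1000 UMIs, -0.17 and -0.18 with the median of all genes set to 0, -0.41 and 0.0100 as means of per-cell CPM, -0.12 and -0.14 in the whole class, and -0.23 and -0.14 with each cluster weighted equally. In cluster 9 they were -0.11 and -0.20 without those cells, and 0.028 and -0.22 in the whole endothelial class; the mitochondrial sum was at -0.25 after thinning. Per-cell means gave -0.019 and -0.0096. The nuclear sum in smooth muscle changed direction with per-cell means, and the mitochondrial sum in cluster 9 under 3 settings; the cause was not tested. Nuclear members called higher in smooth muscle numbered 10 after thinning and 3 against genes of like transcript length, and those called lower 12 to 22 over all settings. Of 132 values for 33 named genes in smooth muscle, 37 moved beyond their interval; mt-Co2, which was not called, changed sign after thinning (-0.11), and 0 of the called genes did; in cluster 9, 2 of 32 moved. Equal cluster weights and the length adjustment were chosen after seeing the data. Depth limits cluster 9, where 29 of 94 nuclear members reached 100 UMIs.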
